A study of Mus musculus with 5 samples.

Results

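Tissue recovered 4 weeks after transplantation of a kidney bud was compared with the kidney of 8-week-old mice, gene by gene. Both came from C57BL/6 mice, and each was measured on 1 single-colour Agilent array. The arrays lay on the same slide. They belong to a set of 5 arrays that also holds the embryonic kidney at stage E13.5, the kidney on the day of birth (P0) and a transplant recovered after 2 weeks. The P0 array lay on the same slide as the compared pair. The E13.5 and 2-week arrays lay on another slide, so a difference between them and the other arrays also crosses slides. The labels name neither the cells of the bud, nor the transplantation site, nor the number and sex of the animals behind an array. The recovered tissue may therefore hold cells of the bud and of the host. Genes were compared where their probe was well above background on either array. This was so for 18309 of the 24563 genes named on the array, of which 15191 were well above background on both arrays, 2530 on the transplant array only and 588 on the 8-week array only. Every group is 1 array, so no difference below has a replicate check, an error between animals or a p-value, and all of them describe these arrays. Replicate spots of a probe had a median SD of 0.0541 log2 units on the transplant array and 0.0573 on the 8-week array, which covers spot error only.

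A level below is the log2 processed signal of a gene's probe minus the log2 of the 75th percentile of that array, so 0 is the 75th percentile. A difference is the transplant minus the 8-week kidney on this log2 scale. Where a probe was dim, meaning not well above background, on 1 array, that side entered at a bound and the fold is written as "at least". In whole tissue, fewer cells of a type and less RNA per cell cannot be told apart.

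The adult kidney filters plasma through the glomerulus, whose podocytes carry the slit diaphragm. The proximal tubule then recovers glucose, phosphate, amino acids and protein and secretes organic ions, and the loop of Henle, distal tubule and collecting duct adjust salt, water and acid. Hnf4a is a transcription factor of the proximal tubule. Much of the transport and metabolic repertoire of these segments is acquired late, around and after birth.

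The 4-week transplant carried most podocyte and endothelial genes of the adult kidney at adult levels or above, as it did most of all genes compared. Most proximal tubule genes lay at a small share of the adult level. Distal and collecting duct genes lay between. Most listed genes of fat, adrenal cortex, urothelium, smooth muscle, matrix and macrophages were higher in the transplant. Both arrays held genes of the kidney lists well above background, among them Umod, Podxl and Pax8. Of all genes compared, 2150 (11.7%) were at least 4-fold higher and 1428 (7.80%) at least 4-fold lower in the transplant. At 2-fold, 4074 (22.3%) were higher and 3403 (18.6%) lower, while 9469 (51.7%) were within 2-fold and well above background on both arrays. The median difference over genes measured on both arrays was -0.14. Without scaling this median was 0.22, and 2736 genes were then at least 4-fold higher and 1086 lower. In the authors' deposited table the same counts were 3361 and 1213. Other settings gave fewer higher genes, 1236 with normexp background correction, 1358 with normexp on the negative controls and 1351 among those measured on both arrays.

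**Figure D1:**
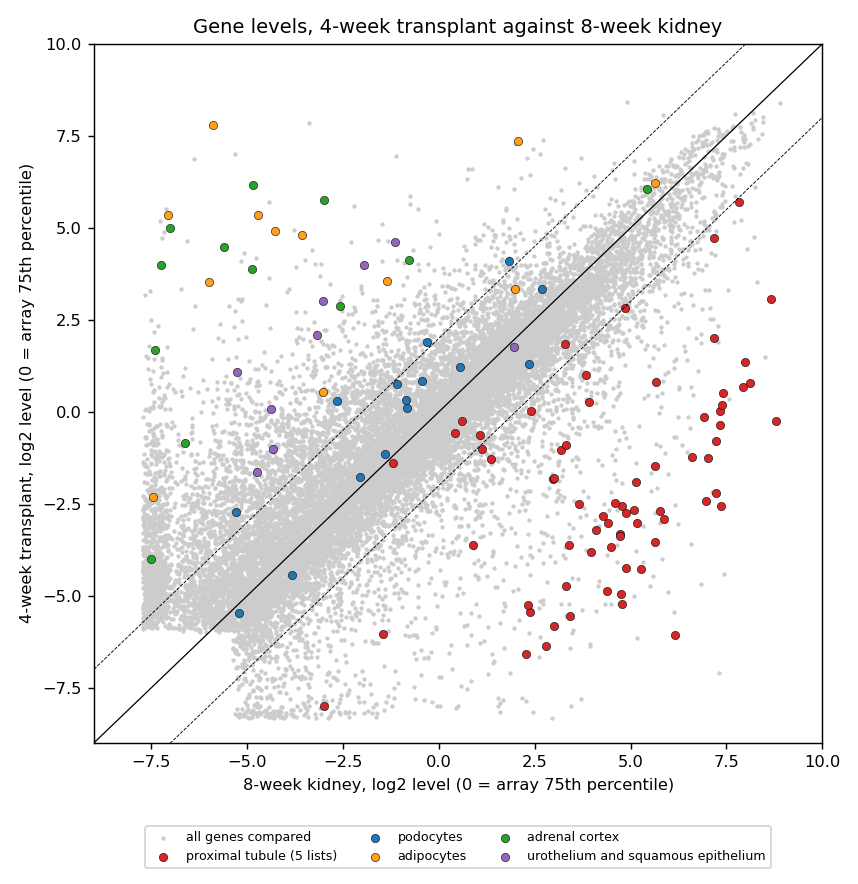
Level of each gene in the 4-week transplant (vertical axis) against the 8-week kidney (horizontal axis), both in log2 units relative to the 75th percentile of the array. Grey points are all 18309 genes compared, the solid line is equality and the dashed lines are 4-fold differences. Proximal tubule genes lie mostly far below the lines, podocyte genes near or above equality, and adipocyte, adrenal cortex and urothelial genes mostly above.

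Proximal tubule genes stood furthest below the adult kidney. In 5 lists with 70 genes, 68 were at least 2-fold lower in the transplant, against 18.6% of all genes compared. Of these, 65 were at least 4-fold lower and 47 at least 64-fold lower. The median difference of the 70 genes was -7.32, or 0.625% of the level in the 8-week kidney. Over all genes compared the median was 0.00.

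All 14 apical transporters were lower, with a median difference of -8.04. Slc34a1, the main phosphate transporter of the brush border, had a level of -2.22 in the transplant and 7.24 in the 8-week kidney, a 707-fold difference. Slc5a2, the glucose transporter SGLT2, had -2.69 in the transplant and 5.78 in the 8-week kidney, 354-fold lower. Slc22a12, a urate transporter, had -5.22 in the transplant and 4.78 in the 8-week kidney, 1025-fold lower. These levels remained well above background in the transplant, whereas Slc6a19, a neutral amino acid transporter, was dim there and at least 504-fold lower. The nearest to the adult level was the peptide transporter Slc15a2, which had -1.28 in the transplant and 1.35 in the 8-week kidney.

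The basolateral and organic ion transporters had a median difference of -7.77, and 12 of 13 were at least 4-fold lower. Slc22a6, the organic anion transporter OAT1, had -2.42 in the transplant and 6.98 in the 8-week kidney, 676-fold lower. Slc22a7, a second organic anion transporter, was dim at -6.08 in the transplant against 6.15 in the 8-week kidney, and so at least 4534-fold lower. Slc7a8, a neutral amino acid exchanger, was the exception, with -0.25 in the transplant and 0.60 in the 8-week kidney.

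The receptors of protein endocytosis followed the transporters. Lrp2 (megalin) had -1.48 in the transplant and 5.64 in the 8-week kidney, 139-fold lower by the probe used, while the probes of this gene differed between -7.3 and -3.5. Cubn (cubilin) had -3.01 in the transplant and 4.42 in the 8-week kidney. Their partner Amn was 136.5-fold lower. The adaptor Dab2, which other cells also use, was 2.7-fold lower, with 1.84 in the transplant and 3.28 in the 8-week kidney.

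Brush border enzymes were more uneven. Their median difference was -4.79, and they ran from Treh (trehalase), at -4.96 in the transplant and 4.74 in the 8-week kidney, to Mme (neprilysin), at -1.40 in the transplant and -1.21 in the 8-week kidney. Anpep, an aminopeptidase, had 2.81 in the transplant and 4.86 in the 8-week kidney, 4.12-fold lower. Dpp4 had -0.58 in the transplant and 0.43 in the 8-week kidney, which is at the edge of 2-fold.

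All 24 genes of proximal tubule metabolism were at least 4-fold lower. Miox, which oxidises inositol, had -0.26 in the transplant and 8.79 in the 8-week kidney, 528-fold lower. The gluconeogenic enzyme Fbp1 had 0.67 in the transplant and 7.93 in the 8-week kidney, 153-fold lower, and G6pc was 584-fold lower. Pck1, another enzyme of gluconeogenesis, was only 5.43-fold lower, with 4.73 in the transplant and 7.17 in the 8-week kidney. Pck1 is also an enzyme of fat cells, whose genes were high in the transplant, and the part of those cells in its level was not tested. The vitamin D enzymes Cyp27b1 and Cyp24a1 were dim in the transplant and at least 7.96-fold and at least 310-fold lower.

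Of the 15 measured genes that lay furthest below the 8-week kidney, 3 (Slc22a12, Acsm2 and Treh) belong to these lists and 12 to none. They were led by Dnase1, a secreted nuclease, at -4.41 in the transplant and 7.44 in the 8-week kidney, 3701-fold lower. Serpinf2, an inhibitor of plasmin, was 3037-fold lower. Conjugation enzymes of the Ugt family (Ugt2b38, Ugt3a1, Ugt2b37 and Ugt2b5) ran from 840.5-fold to 2960-fold lower, and near-identical members of this family may share probe signal. The others were Slc17a3, Akr1c21, Acsm1, Cyp4a12b, Slc51a and Hsd3b3. The probes of Slc17a3 differed between -10.88 and -8.27.

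Transcription factors of the tubule were lower as well, by less in the median (-2.28). Of 12, 10 were at least 2-fold lower, against 18.6% of all genes. Hnf4a had -0.91 in the transplant and 6.33 in the 8-week kidney, 152-fold lower. In the kidneys Hnf4a stood at -2.55 at E13.5 and 3.71 at P0, and the 2-week transplant had 0.30, so the 4-week transplant lay above the E13.5 kidney and below the others. Gata3, a factor of the ureteric and collecting duct lineage, was higher, with 1.41 in the transplant and -0.21 in the 8-week kidney.

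Promoter windows of RefSeq genes (build GRCm38.p6, 250 bases before to 50 after the transcript start) were searched on both strands for a 9-letter form of the HNF4 site, CAAAGTCCA. Of the 70 proximal tubule genes 59 had a window, and 5 of these (8.47%) held the letters, namely Agxt2, Nat8, Pdzk1, Slc3a1 and Treh. Of all 27025 genes with a window 0.555% held them. All 5 genes were more than 64-fold lower in the transplant, as were 47 of the 70. The windows of Treh, Pdzk1 and Slc3a1 are shown because they belong to genes that lay 833-fold, 205-fold and 195.5-fold below the adult level. Capitals mark the HNF4 letters, or their reverse complement in Treh. They begin at -71 in Treh, 14 in Pdzk1 and -39 in Slc3a1, counted from 0 at the transcript start. A match describes the letters and not a bound site.
Treh (GRCm38.p6, chr9:44672983-44673282, plus strand): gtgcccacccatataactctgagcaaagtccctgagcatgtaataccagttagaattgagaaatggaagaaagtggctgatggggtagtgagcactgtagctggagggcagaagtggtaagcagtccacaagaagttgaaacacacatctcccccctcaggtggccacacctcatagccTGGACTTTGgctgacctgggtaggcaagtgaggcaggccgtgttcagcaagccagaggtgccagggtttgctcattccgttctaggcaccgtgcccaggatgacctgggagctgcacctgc
Pdzk1 (GRCm38.p6, chr3:96829815-96830114, plus strand): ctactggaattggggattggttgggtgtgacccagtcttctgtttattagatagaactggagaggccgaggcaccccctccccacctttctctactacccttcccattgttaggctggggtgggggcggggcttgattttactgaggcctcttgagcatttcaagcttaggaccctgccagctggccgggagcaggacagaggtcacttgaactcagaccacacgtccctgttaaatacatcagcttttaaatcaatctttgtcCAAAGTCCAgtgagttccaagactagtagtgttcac
Slc3a1 (GRCm38.p6, chr17:85028097-85028396, plus strand): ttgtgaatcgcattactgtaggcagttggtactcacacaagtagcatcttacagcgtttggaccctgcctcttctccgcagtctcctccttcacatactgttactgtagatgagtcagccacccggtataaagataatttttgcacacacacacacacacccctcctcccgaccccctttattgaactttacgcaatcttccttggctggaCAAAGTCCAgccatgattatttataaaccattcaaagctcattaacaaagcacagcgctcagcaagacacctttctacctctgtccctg

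Beyond the proximal tubule the distance to the adult level narrowed. Of 11 loop of Henle genes 10 were at least 4-fold lower, against 7.80% of all genes, with a median difference of -3.98. Egf, a growth factor precursor of the distal convolution and thick limb, had -4.08 in the transplant and 4.63 in the 8-week kidney, 421-fold lower. Umod (uromodulin), the most abundant urinary protein, had 1.91 in the transplant and 7.28 in the 8-week kidney, 41.4-fold lower. These genes differed in their course. Egf was near -5 in the E13.5 (-4.91) and P0 kidney (-5.04), and Umod had 0.71 in the 2-week transplant and 2.97 at P0. The sodium-potassium-chloride transporter Slc12a1 was 41.8-fold lower, with -4.44 in the transplant and 0.95 in the 8-week kidney. Ptger3, a prostaglandin E2 receptor, was within 2-fold, with -0.64 in the transplant and -0.19 in the 8-week kidney.

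Of 12 distal and connecting tubule genes 9 were at least 2-fold lower, against 18.6% of all genes, with a median difference of -3.01. Calb1, the calcium-binding calbindin, had -4.87 in the transplant and 1.94 in the 8-week kidney, 112-fold lower. Slc12a3, the thiazide-sensitive transporter, was 33.85-fold lower. Kl (Klotho), the coreceptor of the phosphate-regulating hormone FGF23, had 1.60 in the transplant and 4.05 in the 8-week kidney. Its level was -1.89 in the 2-week transplant and 0.77 at P0, so the 4-week transplant lay above both of these. The magnesium channel Trpm6 was within 2-fold, with -2.46 in the transplant and -1.75 in the 8-week kidney. Wnk1 and Slc8a1, which are not specific to this segment, were also within 2-fold by the probes used, while the probes of Wnk1 differed between -1.97 and 0.01.

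Collecting duct principal cell genes had a median difference of -1.99, and 7 of 10 were at least 2-fold lower, against 18.6% of all genes. Aqp2, the vasopressin-regulated water channel, had -1.69 in the transplant and 2.96 in the 8-week kidney, 25.1-fold lower. The vasopressin receptor Avpr2 was 19.8-fold lower, with -4.51 in the transplant and -0.20 in the 8-week kidney. The subunits of the epithelial sodium channel differed, since Scnn1a was 8.95-fold and Scnn1g 2.59-fold lower and Scnn1b was within 2-fold, with -1.21 in the transplant and -0.41 in the 8-week kidney. Fxyd4, a regulator of the sodium pump, had 2.81 in the transplant and 3.60 in the 8-week kidney. Elf5, a transcription factor of principal cells, was higher, with -1.49 in the transplant and -2.98 in the 8-week kidney.

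Intercalated cells secrete acid or base. Of their 11 genes 9 were at least 2-fold lower, against 18.6% of all genes, with a median difference of -2.32. The proton pump subunit Atp6v0a4 had -0.12 in the transplant and 4.22 in the 8-week kidney, 20.3-fold lower. Slc26a4 (pendrin) had 0.05 in the transplant and 2.90 in the 8-week kidney, 7.18-fold lower. In contrast the pump subunits Atp6v0d2, with -1.43 in the transplant and -1.21 in the 8-week kidney, and Atp6v1g3, with -2.87 in the transplant and -2.08 in the 8-week kidney, were within 2-fold. Foxi1, the transcription factor that specifies these cells, had 0.33 in the transplant and 0.98 in the 8-week kidney.

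**Figure D2:**
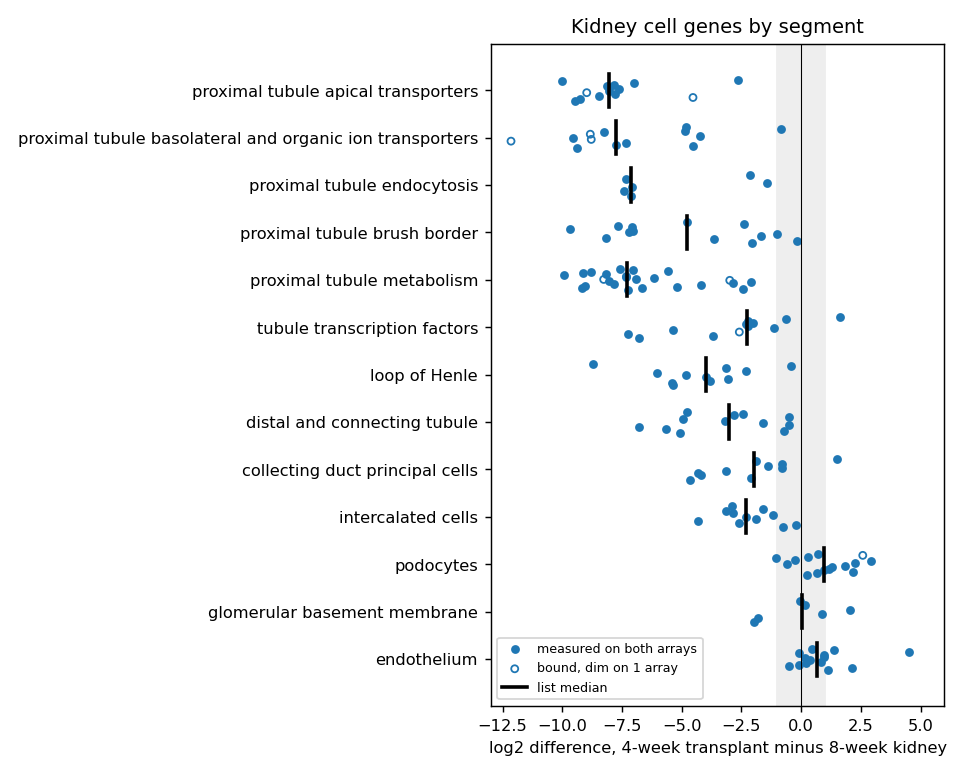
Log2 difference, 4-week transplant minus 8-week kidney, of the genes of 13 kidney lists. Filled points were well above background on both arrays, open points are bounds, black bars are list medians and the shaded band is 2-fold. The medians run from -8.04 for apical proximal transporters to 0.94 for podocytes.

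Most podocyte genes were at or above the adult level. Of 15, 7 were at least 2-fold higher in the transplant, 7 were within 2-fold and 1 was lower, against 22.3%, 51.7% and 18.6% of all genes. The share within 2-fold thus lay near that of all genes. The list median was 0.94. Nphs1 (nephrin), the core of the slit diaphragm, had -1.16 in the transplant and -1.40 in the 8-week kidney. It was -5.23 in the E13.5 kidney, -2.16 at P0 and -0.33 in the 2-week transplant. Podxl, the sialomucin of the podocyte surface, had 0.11 in the transplant and -0.83 in the 8-week kidney. Both were thus within 2-fold.

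The podocyte genes that stood higher included regulators that are also active in the fetal kidney. Wt1 had 1.89 in the transplant and -0.30 in the 8-week kidney, 4.55-fold higher, and 4.45 in the E13.5 kidney. The cell cycle inhibitor Cdkn1c had 4.09 in the transplant and 1.84 in the 8-week kidney, 4.75-fold higher. Kirrel had the highest fold (7.61), but its probes differed between 0.3 and 2.9. Clic5, an actin-associated protein of foot processes, was the gene below, with 1.29 in the transplant and 2.36 in the 8-week kidney.

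In the glomerular basement membrane, the adult collagen chains Col4a3 and Col4a4 were 3.88-fold and 3.48-fold lower, with -2.27 and -0.88 in the transplant against -0.31 and 0.92 in the 8-week kidney. The third chain of this network, Col4a5, was within 2-fold, with 0.52 in the transplant and -0.37 in the 8-week kidney. Lamb2, the adult laminin beta chain, was 4.18-fold higher, with 1.37 in the transplant and -0.70 in the 8-week kidney. Agrn and Lama5 differed by 0.14 log2 units or less by the probes used, while another probe of Agrn gave -1.28.

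Of 14 endothelial genes 10 were within 2-fold, 4 higher and none lower, against 51.7%, 22.3% and 18.6% of all genes, so the share that was higher lay near that of all genes. Kdr, the main VEGF receptor, had 2.37 in the transplant and 2.87 in the 8-week kidney. Ehd3, which marks glomerular endothelium in mice, had 1.49 in the transplant and 1.34 in the 8-week kidney. Vwf stood apart, with 1.55 in the transplant and -2.95 in the 8-week kidney, 22.7-fold higher by the probe used, and its probes differed between 2.39 and 4.51. Of the renin-angiotensin genes, the renin gene Ren1 had -1.42 in the transplant and -0.75 in the 8-week kidney, and the receptor Agtr1a had 1.71 in the transplant and 1.55 in the 8-week kidney. The substrate Agt was 7.585-fold lower, with -2.53 in the transplant and 0.39 in the 8-week kidney. Epo was dim on both arrays.

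Genes that the adult kidney raises were examined as a set. In the 8-week kidney 2483 genes were at least 4-fold above the E13.5 kidney. In the 4-week transplant 555 of them (22.4%) were within 2-fold of the 8-week level, 1706 (68.7%) were at least 2-fold below it and 222 (8.94%) at least 2-fold above. The 8-week array enters both the choice of this set and the comparison, and the E13.5 array lay on another slide, so these shares are a description. The larger the rise in the kidney, the smaller the share that was within 2-fold. It was 28.4% of 1576 genes raised 4- to 16-fold, 17.7% of 513 raised 16- to 64-fold, 6.08% of 181 raised 64- to 256-fold and 2.82% of 213 raised 256-fold or more. Another set held the 1062 genes compared that were at least 4-fold higher in the P0 than in the E13.5 kidney. The compared arrays entered its choice only through the background filter and the choice of probe. Of these genes 199 (18.7%) were within 2-fold, 569 (53.6%) below and 281 (26.5%) above.

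**Figure D3:**
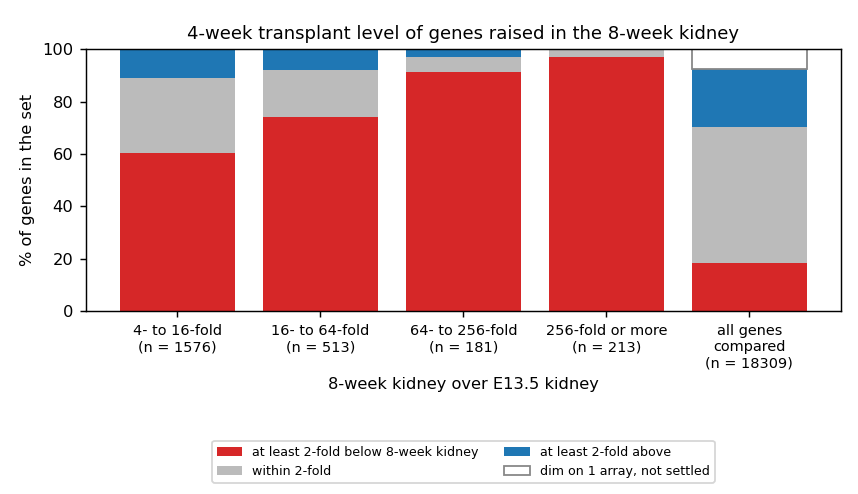
Share of genes (vertical axis, %) that the 4-week transplant held at least 2-fold below, within 2-fold of or at least 2-fold above the 8-week kidney, for genes grouped by their 8-week over E13.5 fold and for all genes compared. White marks genes dim on 1 array whose bound does not settle the class. The share below was 60.5% in the lowest group and 97.2% in the highest.

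Among the genes raised 256-fold or more, 6 were within 2-fold in the transplant. Ces1d, a carboxylesterase, had 2.64 in the transplant and 3.53 in the 8-week kidney, and was dim in the E13.5 kidney. Gpd1, the glycerol-3-phosphate dehydrogenase that links glycolysis to lipid synthesis, had 6.77 in the transplant and 6.43 in the 8-week kidney, against -2.66 in the E13.5 kidney. The complement gene C2 had 3.63 in the transplant and 3.1 in the 8-week kidney. Tmem140 and the serine protease Htra1 were also among them.

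The next genes by the size of the rise were Perp, Efhd1, Slc13a4, Cd36, Adh1 and Parp10. The alcohol dehydrogenase Adh1 had 6.68 in the transplant and 6.19 in the 8-week kidney, against -0.26 at E13.5, 2.86 at P0 and 4.22 in the 2-week transplant. The fatty acid carrier Cd36 had 2.24 in the transplant and 2.98 in the 8-week kidney. The sulfate transporter Slc13a4 had 2.85 in the transplant and 1.92 in the 8-week kidney, against -4.17 at P0. Several of these genes are also known from fat cells or immune cells (Gpd1, Ces1d, Cd36, C2), and the part of such cells in their level was not tested.

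Among the listed tubule and duct genes, few were at the adult level. The 10 tubule and duct lists hold 126 genes, of which 118 were raised at least 4-fold in the 8-week over the E13.5 kidney. In the transplant 110 of the 118 were at least 2-fold below the adult level, 8 were within 2-fold and none was above. Of all 2483 genes raised as much, 68.7% were below, 22.4% within 2-fold and 8.94% above. The 8 were Slc7a8 of the proximal tubule list, Ptger3 of the loop, Trpm6 of the distal tubule, Fxyd4 and Scnn1b of principal cells, and Foxi1, Atp6v0d2 and Atp6v1g3 of intercalated cells. Whole tissue was measured, and the part of cells outside the tubules and ducts in the level of these 8 genes was not tested. Of the 5 podocyte genes raised as much, 3 were within 2-fold, among them Nphs1 and Podxl, while Ptpro was above and Clic5 below.

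**Figure D4:**
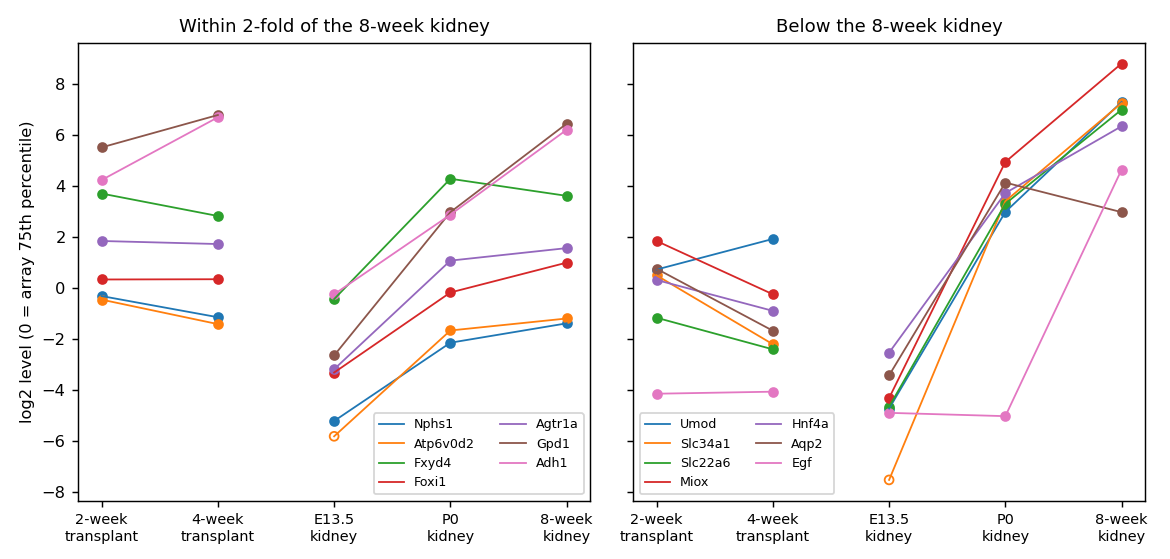
Log2 level (vertical axis, 0 is the 75th percentile of the array) of 14 genes on the 5 arrays, with 7 genes within 2-fold of the 8-week kidney on the left and 7 genes below it on the right. Filled points were well above background and open points were dim. Lines join the 2 transplants and the 3 kidneys. Nphs1 had -1.16 in the 4-week transplant and -1.40 in the 8-week kidney, whereas Slc34a1 had -2.22 in the 4-week transplant and 7.24 in the 8-week kidney.

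Lists of fetal genes differed among themselves. The nephron progenitor list was mixed, with 6 of 14 genes at least 2-fold higher and 4 lower, against 22.3% and 18.6% of all genes. Six2, which maintains the progenitors of the cap mesenchyme, had 0.38 in the transplant and was dim in the 8-week kidney, at least 54.3-fold higher by the probe used, and its probes differed between 3.89 and 7.68. It was 4.68 in the E13.5 and 3.45 in the P0 kidney. Cited1, a marker of the least differentiated progenitors, had only -2.78 in the transplant and -4.43 in the 8-week kidney, against 4.48 at E13.5. Eya1 was lower, with 4.02 in the transplant and 6.14 in the 8-week kidney.

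In the ureteric bud list 4 of the 10 genes compared were higher and 1 lower, against 22.3% and 18.6% of all genes. Ret, the receptor of the bud tip, had -1.67 in the transplant and was dim in the 8-week kidney, while Gfra1, its coreceptor, was dim in the transplant and had -2.18 in the 8-week kidney. Of 14 early nephron genes 3 were higher and 5 lower, with a median difference of -0.55, and the share that was higher lay near the 22.3% of all genes. Wnt4, which drives the first step of nephron formation, had 1.92 in the transplant and -3.37 in the 8-week kidney, 39.3-fold higher, while Irx1 of the intermediate segments was 21.96-fold lower.

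Stromal genes of the fetal kidney were higher in 10 of 12 cases, against 22.3% of all genes, with a median difference of 2.88. Foxd1, which marks the stromal progenitors, had -0.89 in the transplant and -4.94 in the 8-week kidney, 16.6-fold higher. Penk had 4.40 in the transplant and -3.31 in the 8-week kidney, 210-fold higher. Of 13 fetal growth genes 8 were higher, among them the imprinted genes Dlk1, with 3.02 in the transplant and -5.17 in the 8-week kidney, and H19, at least 305-fold higher. Dlk1 is also a gene of the adrenal gland and of fat precursors. Lin28b was dim on both arrays.

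Cell cycle genes were higher in 12 of 16 cases, against 22.3% of all genes, with a median difference of 2.52 over the 15 compared. Mki67 had 0.57 in the transplant and -2.90 in the 8-week kidney, 11.1-fold higher. It was 3.42 in the E13.5 and 2.59 in the P0 kidney, so the transplant lay between the newborn and the adult kidney.

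Genes of other tissues made up the largest positive differences. The adrenal cortex list had 11 of 12 genes higher by 2-fold or more, against 22.3% of all genes, and a median difference of 7.91. Hsd3b1, a steroid dehydrogenase, had 6.17 in the transplant and -4.85 in the 8-week kidney, 2082-fold higher. The last enzyme of corticosterone synthesis, Cyp11b1, had 5.01 in the transplant and was dim in the 8-week kidney, at least 1340-fold higher. The cholesterol transporter Star was at least 922-fold higher, with 4.47 in the transplant. Hsd3b1 belongs to a family of near-identical genes that may share probe signal. On the other arrays these 3 genes lay far below the 75th percentile. The 2-week transplant was dim for Hsd3b1, Cyp11a1 and Cyp11b1, and the median of the list was 5.90 log2 units higher in the 4-week than in the 2-week transplant. Cyp21a1 was 433-fold higher by the probe used, and its probes differed between 4.6 and 8.8. The summed level of the 12 genes, in multiples of the 75th percentile, was 307 in the transplant and 44.3 in the 8-week kidney. Nearly all of the 8-week sum was Fdx1, a gene within 2-fold that other tissues also express, and without it the sum was 240.2 in the transplant and 0.996 in the 8-week kidney.

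The adrenal medulla list was mixed, with 6 higher and 2 lower of 8, against 22.3% and 18.6% of all genes. Dbh, which makes noradrenaline, had 1.42 in the transplant and was dim in the 8-week kidney, at least 112-fold higher, and the granule protein Chga was at least 52.6-fold higher. Th, the first enzyme of this pathway, was 2.94-fold higher. Slc18a1 was 113-fold lower, with -3.92 in the transplant and 2.90 in the 8-week kidney. Ddc, an enzyme that the proximal tubule also expresses, was 7.57-fold lower.

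Fat genes were higher in 11 of 12 cases, against 22.3% of all genes, with a median difference of 6.85. Cfd (adipsin) had 7.81 in the transplant and was dim in the 8-week kidney, at least 9325-fold higher. Adipoq (adiponectin) had 5.36 in the transplant and was also dim in the 8-week kidney. The lipid droplet gene Cidec had 5.34 in the transplant and -4.71 in the 8-week kidney, 1060-fold higher by the probe used, and its probes differed between 6.82 and 10.05. Dgat2 alone was within 2-fold, with 6.21 in the transplant and 5.64 in the 8-week kidney. The summed level of the list was 637 in the transplant and 58.6 in the 8-week kidney, and without Dgat2 it was 563 in the transplant and 8.82 in the 8-week kidney.

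Genes of brown fat were also high. Ucp1, the uncoupling protein of thermogenesis, had 4.73 in the transplant and was dim in the 8-week kidney, at least 1103-fold higher, with 4.20 in the 2-week transplant and dim levels in the E13.5 and P0 kidney. Cox8b had 6.87 in the transplant and was dim in the 8-week kidney, and the lipid droplet gene Cidea was at least 5115-fold higher. Of the 10 genes compared 9 were higher, against 22.3% of all genes. The summed level of the list was 332 in the transplant and 11.8 in the 8-week kidney. Without Cox7a1, the member highest in the 8-week kidney, it was 277 in the transplant and 3.58 in the 8-week kidney. The tenth, Ppargc1a, was 3.76-fold lower, with -0.44 in the transplant and 1.47 in the 8-week kidney.

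Urothelial and squamous epithelial genes were higher in 8 of 9 cases, against 22.3% of all genes, with a median difference of 5.29. The uroplakin Upk1a had 4.61 in the transplant and -1.15 in the 8-week kidney, 54.0-fold higher, and Upk3a had 4.00 in the transplant and -1.95 in the 8-week kidney. Krt5, a basal cell keratin, had 3.00 in the transplant and -3.02 in the 8-week kidney, and its probes differed between 3.75 and 6.02. The summed level of the list was 60.1 in the transplant and 4.99 in the 8-week kidney, and without Trp63 it was 56.7 in the transplant and 1.10 in the 8-week kidney. In the 2-week transplant Upk3a had -1.61 and Krt5 -3.66. The P0 kidney had 1.73 for Upk3a, 1.52 for Upk1a and -2.42 for Krt5, all well above background. The probes of Trp63, the exception, differed between -0.2 and 6.2.

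The largest positive difference among genes measured on both arrays was that of Ttr (transthyretin), with 7.86 in the transplant and -3.40 in the 8-week kidney, 2451-fold higher. It is a secreted protein of liver and choroid plexus. The choroid plexus genes Kcnj13 and Clic6 were 73.8-fold and 265-fold higher, whereas Folr1 was 5.82-fold lower, and the probes of Otx2 differed between -2.3 and 9.1. Of 9 liver genes 4 were dim on both arrays, 3 were lower, 1 was within 2-fold and 1 was higher. Alb, among the lower ones, was dim in the transplant. Ahsg, the higher one, had -3.06 in the transplant and was dim in the 8-week kidney, at least 5.00-fold higher. Hp (haptoglobin), Rbp4 and Apod followed among the 15 largest positive differences, with Retn, Ccl8, Mrap, Plin4, Timp1, Dlk1 and Car3, and the probes of Apod differed between 1.8 and 8.7 and those of Retn between 9.18 and 12.15.

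Matrix genes were higher in 13 of 14 cases, against 22.3% of all genes, with a median difference of 3.75. Col1a1 had 5.65 in the transplant and -0.74 in the 8-week kidney, 84.3-fold higher. Col3a1 had 5.87 in the transplant and -0.76 in the 8-week kidney, 98.8-fold higher. Smooth muscle genes were higher in 7 of 9 cases, and the actin gene Acta2 had 4.02 in the transplant and -0.28 in the 8-week kidney.

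Macrophage genes were higher in 12 of 13 compared, with a median difference of 3.73. Adgre1, a surface receptor of mouse macrophages, had 1.45 in the transplant and -2.28 in the 8-week kidney, 13.3-fold higher, and Csf1r alone was within 2-fold. All 9 neutrophil genes were higher, led by S100a8 with 3.33 in the transplant and -3.91 in the 8-week kidney. Lymphocyte genes showed smaller differences, and Cd8a, Cd8b1 and Foxp3 of T cells were dim on both arrays. Of the 9 T and NK cell genes compared 3 were higher and none lower, and of the 6 B and plasma cell genes compared 5 were lower. Among all genes compared 22.3% were higher and 18.6% lower. Jchain, the joining chain of secreted antibodies, was dim in the transplant and had -0.62 in the 8-week kidney, at least 41.4-fold lower.

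Genes of antigen presentation were higher in 11 of 12 cases and interferon response genes in 9 of 12, against 22.3% of all genes. Their medians were 2.02 and 2.01. H2-Aa, a class II chain, had 0.85 in the transplant and -1.56 in the 8-week kidney. Oas1a, which senses viral RNA, had 1.94 in the transplant and -0.64 in the 8-week kidney, 6.00-fold higher. The ubiquitin-like Isg15 had 2.76 in the transplant and 0.50 in the 8-week kidney, 4.78-fold higher. Ifit3 was within 2-fold, with -0.07 in the transplant and 0.01 in the 8-week kidney.

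The interferon-stimulated response element, searched as 2 copies of GAAA with 2 bases between them, was found in the windows of 6 of the 8 interferon genes that had one, Gbp2, Ifit1, Ifit3, Isg15, Oas1a and Rsad2, and in 3.99% of all genes with a window. Ifit3 held it and was within 2-fold. The windows of Oas1a and Isg15 are shown as genes of this list that were higher in the transplant. Capitals mark the element, where overlapping matches run together, 2 in Oas1a from -20 and 3 in Isg15 from -78. The adrenal cortex list had 4 genes with a window, none of which held the SF-1 letters CAAGGTCA, against 1.76% of all genes.
Oas1a (GRCm38.p6, chr5:120907476-120907775, minus strand): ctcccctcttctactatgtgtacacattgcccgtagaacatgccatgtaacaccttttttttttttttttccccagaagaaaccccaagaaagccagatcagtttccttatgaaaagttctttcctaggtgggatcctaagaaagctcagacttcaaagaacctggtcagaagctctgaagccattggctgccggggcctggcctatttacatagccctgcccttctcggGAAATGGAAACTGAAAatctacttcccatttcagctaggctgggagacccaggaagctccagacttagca
Isg15 (GRCm38.p6, chr4:156200769-156201068, minus strand): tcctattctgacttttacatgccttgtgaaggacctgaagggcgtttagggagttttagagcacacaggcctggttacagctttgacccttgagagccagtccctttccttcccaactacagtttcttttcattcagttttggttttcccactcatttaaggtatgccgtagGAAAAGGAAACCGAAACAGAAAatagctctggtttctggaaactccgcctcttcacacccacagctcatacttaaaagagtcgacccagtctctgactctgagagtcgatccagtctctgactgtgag

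Genes of tissue injury and acute phase were mostly higher. Timp1, an inhibitor of matrix proteases, had 3.08 in the transplant and -5.15 in the 8-week kidney, 300-fold higher. Lcn2, a secreted protein of injured tubule and of neutrophils, had 2.66 in the transplant and -2.38 in the 8-week kidney, 33.0-fold higher. Havcr1 (KIM-1), which marks injured proximal tubule, was 79.4-fold lower, with -5.48 in the transplant and 0.83 in the 8-week kidney. Of 11 chemokine genes 10 were higher, against 22.3% of all genes. They were led by Ccl8 with 4.18 in the transplant and -4.77 in the 8-week kidney. C3 of the complement system had 6.33 in the transplant and 0.74 in the 8-week kidney, whereas Cfb was 10.1-fold lower.

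**Figure D5:**
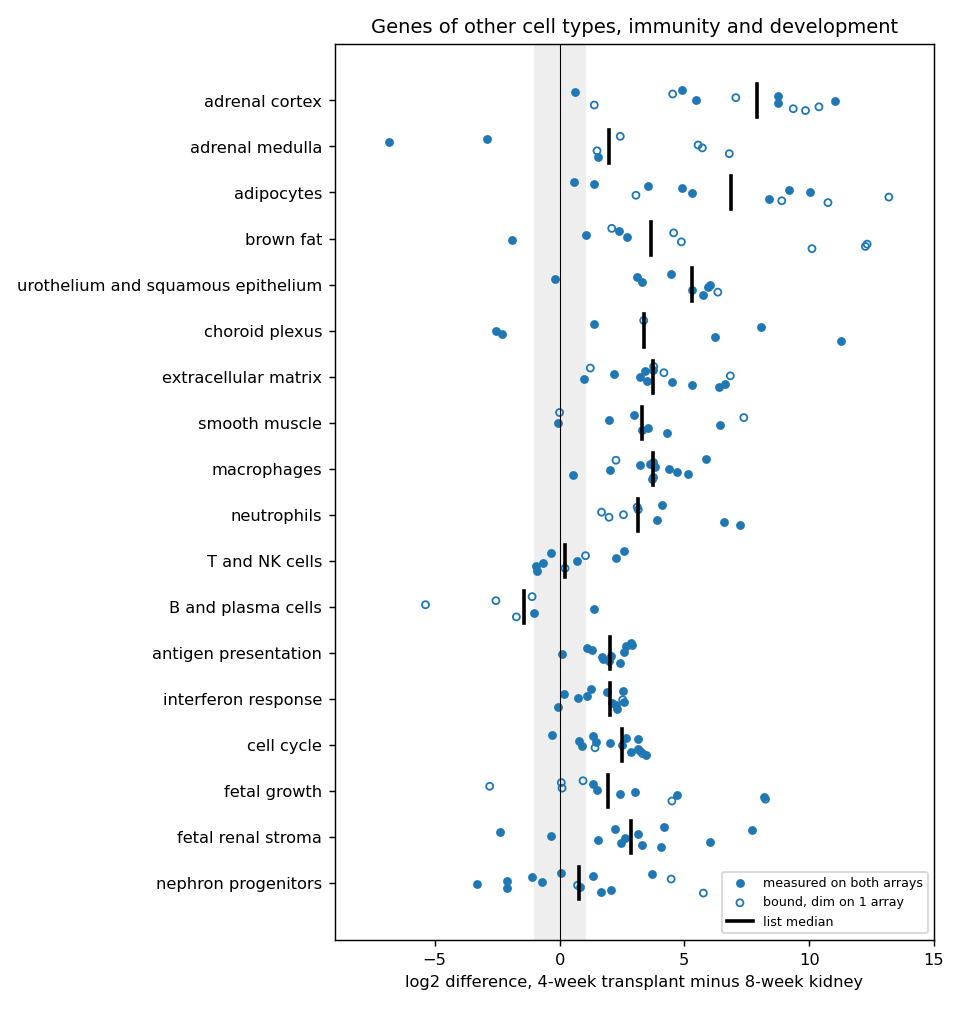
Log2 difference, 4-week transplant minus 8-week kidney, of the genes of 18 lists of other cell types, immunity and development. Filled points were well above background on both arrays, open points are bounds, black bars are list medians and the shaded band is 2-fold. The adrenal cortex and adipocyte medians lie at 7.91 and 6.85, and that of B and plasma cells at -1.41.

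Smaller lists of other cell types completed the picture. Of 4 lymphatic endothelial genes 2 were higher, and Lyve1 was at least 9.54-fold higher, with -2.13 in the transplant. Of 6 pericyte and mesangial genes 4 were higher and Mcam lower by the probe used, although its probes differed between -2.0 and 2.7. Of 3 mast cell genes compared 2 were higher. Among all genes compared 22.3% were higher and 18.6% lower.

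Nerve tissue was represented unevenly. Of 10 neuronal genes 8 were higher, led by Stmn2, a neuronal microtubule regulator, with 0.29 in the transplant and a dim level in the 8-week kidney. Of 10 glial genes compared 5 were higher and 2 lower, against 22.3% and 18.6% of all genes. S100b, of glia and also of fat cells, had 2.30 in the transplant and -5.36 in the 8-week kidney, while Sox10, the factor of Schwann cells, had -3.67 in the transplant and -3.54 in the 8-week kidney.

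Skeletal tissue lists were largely dim, with 2 of 8 bone, 4 of 8 cartilage and 5 of 11 skeletal muscle genes dim on both arrays. Of those compared, 2 of 6 bone, 2 of 4 cartilage and 4 of 6 muscle genes were higher, against 22.3% of all genes. The cartilage matrix gene Comp had 0.83 in the transplant and -4.18 in the 8-week kidney, while Myod1 and Myog of muscle precursors were dim on both. All 3 erythroid genes compared were higher. Hba-a1, an adult alpha globin, had 7.39 in the transplant and 2.72 in the 8-week kidney, and the embryonic globins Hbb-bh1 and Hba-x were dim on both arrays.

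Energy genes were closer to the adult level than the transporters. Of 13 respiratory chain and ATP synthase genes 10 were within 2-fold and 3 lower, against 51.7% and 18.6% of all genes. The share that was lower thus lay near that of all genes. Their differences ran from -1.24 to -0.46, with a median of -0.76. Atp5b had 7.28 in the transplant and 8.11 in the 8-week kidney. Of 12 fatty acid oxidation genes 8 were lower. The omega-hydroxylase Cyp4a10 was 335-fold lower and the peroxisomal Ehhadh 59.5-fold lower, whereas the mitochondrial Acadvl was within 2-fold, with 6.06 in the transplant and 6.13 in the 8-week kidney. Fat cells also use these mitochondrial enzymes, and the part of fat cells in their level was not tested.

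Genes whose kidney level differs between the sexes in mice were also compared. Several of them are in lists above, namely Kap, Slco1a1, Cyp4b1 and Slc22a7 of the proximal tubule and Cyp4a14 of fatty acid oxidation. Of 7 male-biased genes 6 were lower, against 18.6% of all genes. Among them was Kap, with 3.06 in the transplant and 8.65 in the 8-week kidney. Of 5 female-biased genes 3 were lower, led by Cyp2a4, dim in the transplant and 7.30 in the 8-week kidney, whereas the prolactin receptor Prlr was 30.2-fold higher by the probe used. The probes of Cyp2a4 differed between -14.41 and -11.93 and those of Prlr between 2.84 and 4.92. Xist, the RNA of the inactive X chromosome, had -2.88 in the transplant and was dim in the 8-week kidney. The Y-linked Ddx3y had -0.06 in the transplant and 0.22 in the 8-week kidney. The part of sex in the differences above was not tested.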

How the data were processed

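RNA of 5 mouse tissues was measured on 1 single-colour Agilent array each, and the groups follow the sample titles. The deposited scanner files hold a processed intensity per spot, which per the file headers the authors made with Agilent Feature Extraction (version 10.7.3.1) by background subtraction and detrending, with flags for signal well above background and outliers. Of 44397 spots 43020 were not controls. The authors' deposited gene table holds log2 values, 99.7% of which lay within 0.01 of the unshifted log2 signal after a mean over probes and centring of rows. It was used for names and as an alternative.

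Each log2 intensity was taken minus the log2 of the array's 75th percentile (1504 in the 4-week transplant, 1170 in the 8-week kidney). Spots flagged as outliers on at least 1 array (447) were removed, and saturation was seen in none. A probe counted as well above background if at least 50% of its spots were. The probe with the highest mean over the 5 arrays stood for its gene, and 7202 genes had several. Where the differences of a named gene's probes spanned over 2 log2 units, their range is given. Of 39429 probes, 31795 were named by gene identifier through RefSeq, 2026 kept the authors' symbol, 19 were named by accession and 5589 stayed unnamed. A dim value was replaced by the lowest level well above background on that array (-5.99 in the 4-week transplant, -5.38 in the 8-week kidney) unless its own was higher, and a bound that turned the direction entered as 0.

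The members and the 53 gene lists (556 of 558 entries matched) were chosen with earlier results of these data known. Text names the 15 largest measured differences in each direction, the 12 genes most raised in the 8-week over the E13.5 kidney that were within 2-fold, and list members. Some genes covered by these choices are not reported here. The promoters shown were chosen after values were seen. The steps were tested on simulated data. The simulated pair shared its background flags, so the rule for bounds on dim values was not exercised. Files were read with Python 3.11.15 and pandas 2.3.3, and normexp (offset 50) was run with limma 3.58.1 in R 4.3.3. Precision is limited by the number of arrays. Alternatives covered the background correction, scaling, the authors' table, probe choice, background filter and fold threshold.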

Additional observations from a re-analysis of the deposited data

How the results depend on the processing

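No paired analysis was possible because each group is 1 array, and for the same reason no array could be left out and no term for slide was possible. The 2150 genes at least 4-fold higher became 1236 with normexp, 1358 with normexp on negative controls, 3361 in the authors' deposited table (which has no bound on dim values), 1351 when only genes measured on both arrays were used, 4074 at 2-fold and 1042 at 8-fold. The 1428 lower genes became 3403 at 2-fold and 741 at 8-fold. The 9469 genes within 2-fold became 14999 with no background filter. The 555 adult-raised genes within 2-fold became 296 with normexp (of 1437), 278 within 1.5-fold, 917 within 3-fold and 199 for the set from the P0 kidney. On the E13.5 array normexp put the background mean at -992, so counts that use this array are distorted under it. The other 32 counts stayed within 1.5 times. The share of higher genes among 4-fold calls was 60.1%, against 71.6% without scaling, 73.5% in the authors' deposited table and 52.0% with normexp.

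Among list medians 393 recomputed values stayed close, 81 moved and 3 turned. Restricted to genes measured on both arrays, the median of B and plasma cells was 0.17 (2 genes) and that of adrenal medulla -2.92 (3 genes). With no background filter that of skeletal muscle was -0.25. Among single genes 4198 recomputed values stayed close, 593 moved and 3 turned. With normexp 202 moved and 342 stayed close, and with normexp on negative controls 174 moved and 370 stayed close. Mcam was 0.35 with the mean over probes. Otx2 was 3.38 with the mean over probes and 3.58 in the authors' deposited table. Both genes have probes that disagree, and the cause was not tested. Dim signal limits the folds given as bounds.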
